A study of Drosophila melanogaster with 12 samples.

Results

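Kc 167 cells treated for 5 days with double-stranded RNA (dsRNA) against dGcn5 were compared with all other cells of the RNA-seq experiment, to find genes that stood apart in the dGcn5-depleted cells and not in cells given any other dsRNA. Kc 167 is a hemocyte-like line derived from Drosophila melanogaster embryos, and dsRNA directs the degradation of mRNA of the same sequence. The comparison set 3 libraries of dGcn5 dsRNA, chosen by their labels alone, against 9 other libraries, so that all 12 libraries of the series were used. The 9 libraries came from 3 groups of 3, treated in the same way with dsRNA against Elp3, against nej, or against yellow, the pigmentation gene used as control (listed as y). Each group had a dsRNA of its own as its only difference by label, and no untransfected cells were compared here. The labels number the replicates without saying whether they came from separate cultures, so p-values measure the spread between these libraries only. One dsRNA per gene was used, and effects of its sequence on other mRNAs cannot be told apart from those of the target.

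Gcn5 is a histone acetyltransferase that acetylates histone H3, including lysine 9. It works as the catalytic subunit of the co-activator complexes SAGA and ATAC, which are brought to promoters by activators. Elp3 is the catalytic subunit of Elongator, and nej is the Drosophila homolog of the acetyltransferase CBP. A gene was taken as particular to dGcn5 dsRNA where dGcn5-depleted cells differed in the same direction from each of the 3 other groups.

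The reagents that define the groups are shown by the primers of the dsRNA templates, without the T7 promoter that each carried. The study's primer list gives them for dGcn5, yellow and Elp3. The capitals mark 11 bases that the dGcn5 forward primer shares, as reverse complement, with the reverse primer used for RT-qPCR of dGcn5, so that the amplified dsRNA template and that RT-qPCR product overlap there.
dGcn5 dsRNA forward primer: atgaaatcgGTGTCCGAGTC
dGcn5 dsRNA reverse primer: ccagtttatgcgggctacat
dGcn5 RT-qPCR reverse primer: gtggtcttcGACTCGGACAC
yellow dsRNA forward primer: aaaaactaagccaacgtcatc
yellow dsRNA reverse primer: ccgtggatataggcaaaaa
Elp3 dsRNA forward primer: tggtacaagggccaaaatct
Elp3 dsRNA reverse primer: acagcagcgccaatgtg

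Libraries held between 19102102 and 23198850 counts on exons, and 10368 of 23882 features passed a filter on low counts. Values per library are given as CPM, counts scaled to library sizes that were normalized by the TMM method. The spread between replicates was wide. The biological coefficient of variation was 42.5%, and 95% confidence intervals extended by 0.71 log2 units on each side in the median feature. Replicates 1 and 2 of dGcn5 dsRNA lay nearest to each other, with a root mean square difference of 0.497 in log2 CPM over all features tested. Replicate 3 stood apart from them, at 0.934 and 1.12, and lay nearest to replicate 3 of the libraries labelled Elp3, at 0.509. Levels also followed exon length to a degree that differed between libraries. The slope on the log2 scale, per doubling of exon length, was -0.127, -0.210 and 0.048 in dGcn5 replicates 1, 2 and 3, and spanned -0.341 to 0.230 over all libraries. With this trend removed, the log2 fold change of Gcn5 was -1.50, that of CG9521 -2.38 and that of Syn2 3.95. In the map of the first 2 principal components the 3 dGcn5 libraries did not form a group of their own.

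**Figure D1:**
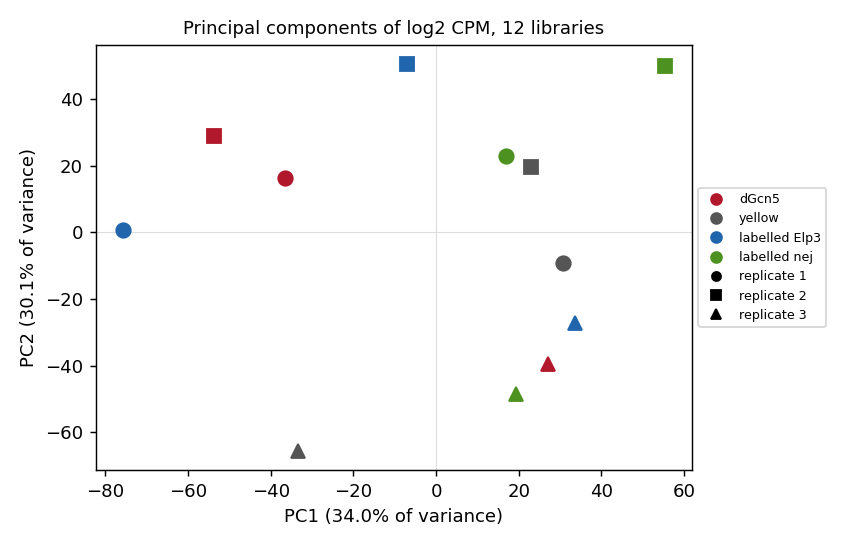
Principal component map of log2 CPM of the 12 libraries, with the first component (34.0% of the variance) on the horizontal axis and the second (30.1%) on the vertical axis. Colours mark the dsRNA group and symbols the replicate number. dGcn5 replicates 1 and 2 lie at the left, while dGcn5 replicate 3 lies at the lower right beside the third replicates of the libraries labelled Elp3 and nej.

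The target itself was examined first. Gcn5 (FBgn0020388, chromosome 3L 12521129 to 12524014, BDGP6.32, minus strand) measured 28.7, 43.2 and 48.5 CPM in dGcn5-depleted cells. In the other cells it measured 150, 135 and 128 CPM with yellow dsRNA, 82.5, 97.7 and 142 CPM in the libraries labelled Elp3, and 83.0, 113 and 122 CPM in those labelled nej. All 3 dGcn5 libraries lay below all 9 others. The mean of 40.1 ± 10.3 CPM (SD, n = 3) was 34.3% of the 117 ± 24.8 CPM of the other libraries (SD, n = 9). This is a log2 fold change of -1.53 (95% confidence interval -2.06 to -1.01). Its unadjusted p was 4.02e-05 and its adjusted p was 0.104 (edgeR, quasi-likelihood test, Benjamini-Hochberg over all features). DESeq2, run as an alternative on the same libraries, gave an adjusted p of 6.27e-07. Against the single groups the log2 fold change was -1.78 (yellow), -1.42 (labelled Elp3) and -1.40 (labelled nej). For this gene, the target by label, an exact two-sided permutation test of 3 against 9 libraries gave p = 0.00909, the smallest that the 220 choices allow. That test takes the 9 libraries as 1 group. The exons of Gcn5 share 28 bases with those of ver on the opposite strand.

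The other targets did not follow their labels. In the libraries labelled Elp3, Elp3 measured 4126, 1900 and 3679 CPM, against 36.3 to 58.8 CPM in the libraries of the other 3 groups. In the libraries labelled nej, nej measured 309, 3245 and 698 CPM, against 46.8 to 231 CPM in the others. Both targets were thus higher, not lower, in the libraries that name them, so these groups are named by their labels throughout, and depletion of Elp3 or nej was not seen. Whether reads of the transfected dsRNA itself were counted is not given in the sources used here and was not tested. The counts of each target in the libraries that name it, those of Gcn5 with dGcn5 dsRNA included, may therefore not equal its mRNA level. The yellow gene y measured 41.9, 16.2 and 11.2 CPM in dGcn5-depleted cells and 10.99, 14.44 and 44.02 CPM in yellow dsRNA cells, so that the groups overlapped.

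**Figure D2:**
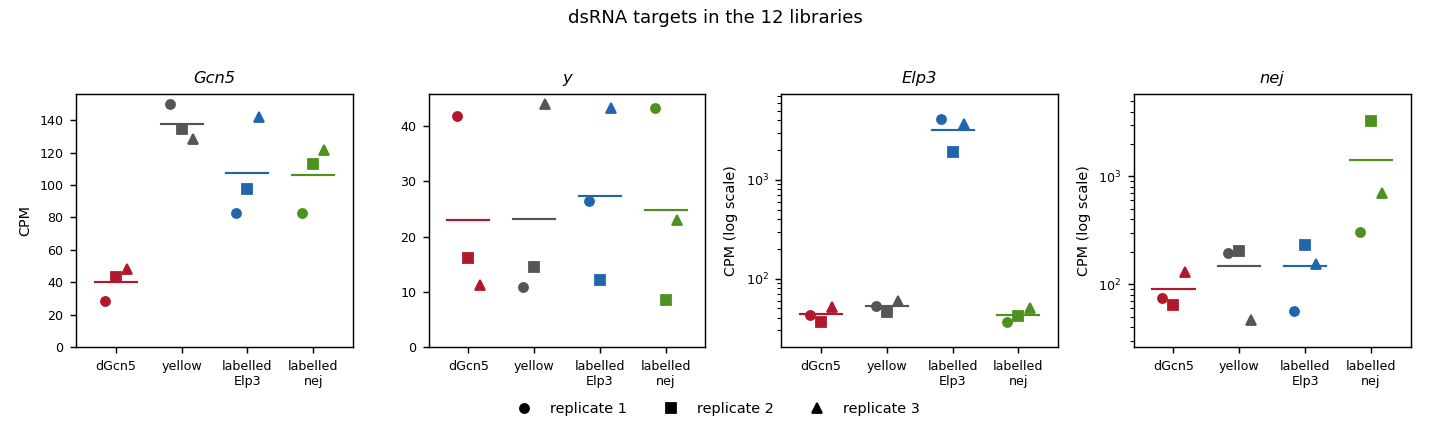
CPM of the genes targeted by the 4 dsRNAs in each of the 12 libraries, with symbols for the replicate number and horizontal lines for the group means. The axes of Gcn5 and y are linear and those of Elp3 and nej are logarithmic. Gcn5 lies below 50 CPM only in the dGcn5 libraries, while Elp3 and nej are highest in the libraries labelled with them.

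Across all features, 0 genes passed an adjusted p under 0.05 for dGcn5 dsRNA against the mean of the 3 other groups by edgeR's quasi-likelihood method, adjusted after Benjamini-Hochberg (0% of those tested), and the smallest adjusted p was 0.0555. At an unadjusted p under 0.05 there were 190 features, or 1.83% of those tested, of which 112 were higher (1.08%) and 78 lower (0.752%) in dGcn5-depleted cells. This number was 634, 89 and 74 without dGcn5 replicates 3, 1 and 2, 377 without replicate 1 of the libraries labelled Elp3 and 357 without yellow replicate 3. DESeq2 called 12 genes on the same libraries (0.116%), 6 higher and 6 lower, and limma-voom with sample quality weights called 3337. The median log2 fold change over all features was -0.01. For dGcn5 dsRNA against each of the 3 groups, with the largest of the 3 p-values taken for each gene, 0 genes passed the adjusted threshold in edgeR (0%). At an unadjusted p under 0.05 in all 3 comparisons there were 21 features (0.203%), 6 higher (0.0579%) and 15 lower (0.145%). DESeq2 called 3 genes in this stricter comparison (0.0289%), namely CG9521 (adjusted p = 0.000665), Gcn5 (0.0101) and CR43361 (0.0245). All 3 comparisons share the dGcn5 libraries.

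All 3 dGcn5 libraries lay outside the range of all 9 others for 37 features, 0.357% of those tested, with 20 above (0.193%) and 17 below (0.164%). If the 12 libraries were interchangeable, a share of 0.00909 would be placed so by the 220 choices of 3 libraries, which is more than was seen. The number rose when any 1 library was left out, and fewer libraries make the condition easier to meet. It was 373 without dGcn5 replicate 3, 107 without dGcn5 replicate 1 and 84 without dGcn5 replicate 2. It was also 100 and 67 without replicates 1 and 2 of the libraries labelled Elp3, 70 without yellow replicate 3 and 62 without replicate 3 of those labelled nej. Among the features above the range 65% were protein coding, 15% pseudogenes and 15% annotated transposable element insertions. Those below were 76.5% protein coding, 5.88% pseudogenes and 17.6% insertions. Over all features tested the shares were 83.5%, 1.02% and 10.5%. With 20 and 17 features, these shares are counts of 3 pseudogenes and 3 insertions above the range and are given as a description.

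**Figure D3:**
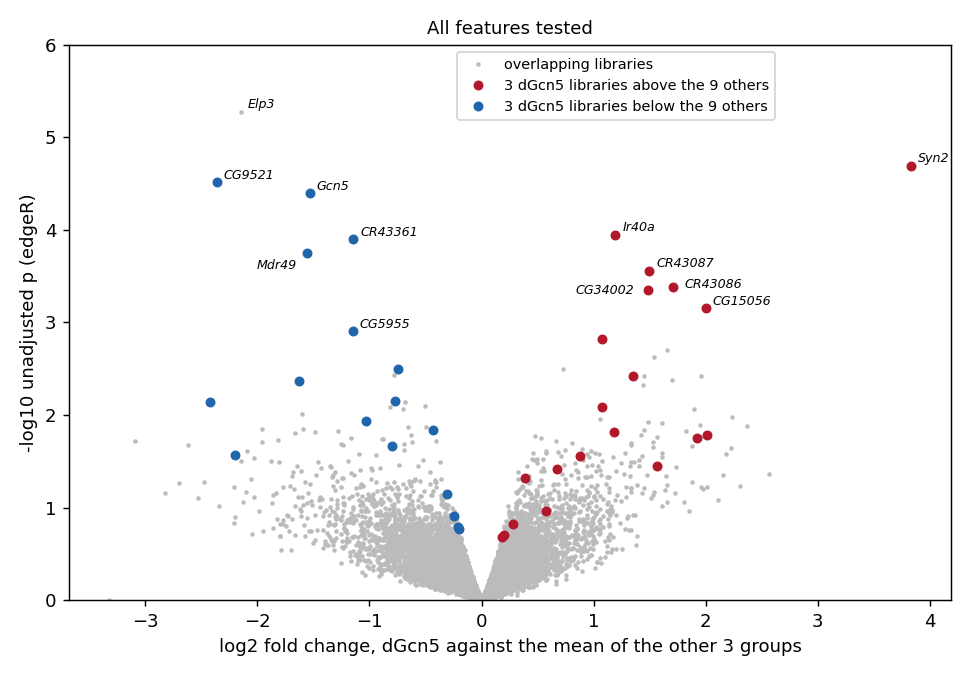
log2 fold change of dGcn5 against the mean of the other 3 groups (horizontal axis) and −log10 of the unadjusted p of edgeR's quasi-likelihood test (vertical axis) for all 10368 features tested. Red and blue points are the 20 and 17 features whose 3 dGcn5 libraries lie above or below the 9 others, and named points are the 6 higher and 6 lower genes with the smallest p. Elp3 has the smallest p but its libraries overlap.

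The 6 higher and the 6 lower genes with the smallest p were not called in edgeR and were those that DESeq2 called. One of them, Elp3, does not separate dGcn5-depleted cells. It measured 42.5, 36.8 and 51.6 CPM with dGcn5 dsRNA, against 52.5 ± 6.46 CPM with yellow dsRNA and 42.7 ± 6.98 CPM in the libraries labelled nej (SD, n = 3 each), and its log2 fold change of -2.15 came from the libraries labelled Elp3. The 11 others, Gcn5 included, lay outside the range of the 9 other libraries in all 3 dGcn5 libraries. They were picked by their p in the same libraries, so this separation is a description.

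Among the lower genes, CG9521 stood farthest from the other groups relative to its spread. CG9521 (FBgn0030588, X 14851005 to 14853269) belongs to the glucose-methanol-choline (GMC) oxidoreductases, a family of flavin-dependent enzymes. It measured 2.22, 1.94 and 1.98 CPM in dGcn5-depleted cells, from 46, 42 and 40 counts. With yellow dsRNA it measured 11.1, 9.11 and 14.4 CPM, in the libraries labelled Elp3 7.59, 6.47 and 13.6 CPM, and in those labelled nej 7.03, 10.7 and 15.2 CPM. The highest dGcn5 library was thus under a level of 6.47 CPM, the lowest of the others. CG9521 was 5.15-fold lower in the fit, a log2 fold change of -2.36 (95% confidence interval -3.15 to -1.58, unadjusted p = 3.08e-05, adjusted p = 0.104 in edgeR after Benjamini-Hochberg). Against the single groups it was -2.50 (yellow), -2.17 (labelled Elp3) and -2.42 (labelled nej), and the libraries labelled Elp3 and nej differed from yellow by -0.32 (interval -1.14 to 0.49) and -0.07 (interval -0.89 to 0.74). Leaving out any 1 library gave values between -2.44 and -2.23.

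Of the 13 genes listed as GMC oxidoreductases, 11 were found by name and 5 passed the filter. CG9521 was the 1 member at an unadjusted p under 0.05, against 1.83% of all features. CG12398, the member with the next smallest p, measured 2.62 ± 0.759 CPM in dGcn5-depleted cells and 2.02 ± 1.52 CPM in the 9 other libraries (SD, log2 fold change 0.58, interval -0.57 to 1.73).

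CR43361 (FBgn0263093, chromosome 4 905179 to 907924), annotated as a pseudogene, measured 5.84, 4.94 and 5.58 CPM in dGcn5-depleted cells. The others measured 9.56, 11.6 and 12.8 CPM with yellow dsRNA, 9.73, 10.5 and 10.9 CPM in the libraries labelled Elp3, and 15.6, 13.98 and 15.3 CPM in those labelled nej. Replicates of each group lay close together and all dGcn5 libraries were below the rest. In the fit the log2 fold change was -1.14 (95% confidence interval -1.59 to -0.70, unadjusted p = 0.000127). Its exons share 1463 bases with unc-13, a synaptic vesicle priming gene on the opposite strand, and up to 372 bases with transposable element insertions. The libraries were made with a stranded kit. Since the use of strand in counting is not given in the sources used here, reads of CR43361 are uncertain.

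Mdr49 (FBgn0004512, 2R 12940323 to 12946347) encodes an ABC transporter of the multidrug resistance family. It measured 14.8, 10.6 and 12.9 CPM in dGcn5-depleted cells and 27.4, 21.4 and 19.0 CPM with yellow dsRNA. In the libraries labelled Elp3 it measured 28.4, 48.9 and 33.5 CPM, and in those labelled nej 52.6, 95.1 and 42.9 CPM. Here the other groups differed among themselves as well: the log2 fold change of dGcn5 dsRNA was -0.82 against yellow, -1.53 against the libraries labelled Elp3 and -2.32 against those labelled nej. The libraries labelled Elp3 and nej measured 0.71 and 1.49 above yellow on the log2 scale, in comparisons that share the yellow libraries. Of the 10 features tested within 20000 bases of Mdr49, CG44251 (log2 fold change -0.98, unadjusted p = 0.0370) and CG44250 (-1.28, unadjusted p = 0.0150) also had p under 0.05 in the same direction, where 0.752% of all features were lower at this threshold. The same window around Gcn5, Elp3, CG9521, CR43361, CG5955, Syn2 and CG15056 held 0 features with p under 0.05 in the direction of the gene.

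CG5955 (FBgn0036997, 3L 20466944 to 20469592) measured 16.7, 15.7 and 12.9 CPM in dGcn5-depleted cells, against 38.0, 40.2 and 41.8 CPM with yellow dsRNA. The libraries labelled Elp3 lay between, at 23.6, 19.7 and 24.8 CPM, and those labelled nej measured 29.3, 67.4 and 28.0 CPM. The dGcn5 libraries lay below all others, while those labelled nej overlapped yellow. The difference of dGcn5 dsRNA from the libraries labelled Elp3 was -0.59 on the log2 scale with an interval of -1.27 to 0.09 (unadjusted p = 0.0839), so that CG5955 did not stand apart from each group.

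Among the higher genes, Syn2 had the largest log2 fold change of all features tested. Syn2 (FBgn0034135, 2R 16552258 to 16558486) encodes a protein of the syntrophin family, adaptors of the dystrophin complex. It was hardly expressed in the other cells. It gave 18, 69 and 61 counts, or 0.868, 3.18 and 3.01 CPM, in dGcn5-depleted cells. The counts were 3, 5 and 5 with yellow dsRNA, 0, 3 and 2 in the libraries labelled Elp3 and 8, 2 and 6 in those labelled nej, and the highest of these 9 libraries measured 0.411 CPM. Replicate 1 of dGcn5 dsRNA was closer to the other groups than replicates 2 and 3. Syn2 passed the filter on low counts only through the dGcn5 libraries, as did SLC22A and CG15399 among the 20 features above the range, so its p and its rank are conditional on the high dGcn5 level. In the fit Syn2 was 14.3-fold higher, a log2 fold change of 3.83 (95% confidence interval 2.62 to 5.05, unadjusted p = 2.03e-05, adjusted p = 0.104 in edgeR after Benjamini-Hochberg). It was 3.58 against yellow, 4.79 against the libraries labelled Elp3 and 3.13 against those labelled nej. It lay between 3.56 and 4.23 when any 1 library was left out. edgeR's newer quasi-likelihood method and the fit without a filter both called Syn2, with Benjamini-Hochberg adjusted p of 0.00219 and 0.0394. limma-voom with quality weights gave a smaller log2 fold change of 2.64.

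Ir40a (FBgn0259683, 2L 22189526 to 22214376), an ionotropic receptor known for humidity sensing in antennal neurons, was well expressed in these cells. It measured 113, 119 and 88.0 CPM in dGcn5-depleted cells and 54.0, 44.0 and 36.6 CPM with yellow dsRNA. In the libraries labelled Elp3 it measured 61.6, 84.2 and 52.4 CPM and in those labelled nej 44.2, 24.0 and 34.6 CPM. The lowest dGcn5 library and the highest library labelled Elp3 lay close together. Ir40a had a log2 fold change of 1.19 (95% confidence interval 0.74 to 1.65, unadjusted p = 0.000114), and against the libraries labelled Elp3 it was 0.69 (interval 0.09 to 1.29). Within 20000 bases of Ir40a 18 features were tested, most of them transposable element insertions. Of these, FBti0060155 (log2 fold change 1.07, unadjusted p = 0.00816) and FBti0064217 (0.98, unadjusted p = 0.0348) had p under 0.05 in the same direction, where 1.08% of all features were higher at this threshold.

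CG34002, CR43086 and CR43087 lie side by side on the plus strand of chromosome 3L within 18100 bases (17858474 to 17876573). CG34002 (FBgn0054002) is protein coding, and CR43086 (FBgn0262532) and CR43087 (FBgn0262533) are annotated as pseudogenes. CG34002 measured 11.8, 10.5 and 6.23 CPM in dGcn5-depleted cells, against 2.18 to 5.29 CPM in the 9 other libraries (median 3.22). CR43086 measured 3.52, 3.78 and 2.96 CPM, against 0.574 to 1.797 CPM in the others (median 0.969). CR43087 measured 24.3, 24.04 and 12.996 CPM, against 4.15 to 12.4 CPM in the others (median 7.10). In all 3 genes dGcn5 replicate 3 was the lowest of the dGcn5 libraries, and for CR43087 it lay just above the highest of the others.

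The log2 fold changes of the 3 neighbours were 1.48 for CG34002 (95% confidence interval 0.81 to 2.15), 1.71 for CR43086 (0.95 to 2.47) and 1.49 for CR43087 (0.86 to 2.13). Their unadjusted p-values were 0.000451, 0.000411 and 0.000275. Against each other group the largest p was 0.0191, 0.00981 and 0.0156 for CG34002, CR43086 and CR43087. The span holds 11 other features, all annotated transposable element insertions, of which 5 were tested. Their log2 fold changes ranged from -0.43 to 1.204, and FBti0020138 (1.07, unadjusted p = 0.0316) and FBti0062570 (1.204, unadjusted p = 0.0404) had p under 0.05. Each of the 3 genes holds such an insertion within its own span. Whether reads that fit several copies were counted is not given in the sources used here, so the 3 genes cannot be taken as independent and their reads are uncertain.

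CG15056 (FBgn0030918, X 18415415 to 18416911) measured 5.11, 7.61 and 7.61 CPM in dGcn5-depleted cells and 1.61, 1.45 and 1.59 CPM with yellow dsRNA. In the libraries labelled Elp3 it measured 4.33, 2.48 and 2.13 CPM, and in those labelled nej 1.39, 0.193 and 1.57 CPM. CG15056 had a log2 fold change of 1.999 (95% confidence interval 1.04 to 2.95, unadjusted p = 0.000701). Against the libraries labelled Elp3 it was 1.19 with an interval of -0.09 to 2.47 (unadjusted p = 0.0664).

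**Figure D4:**
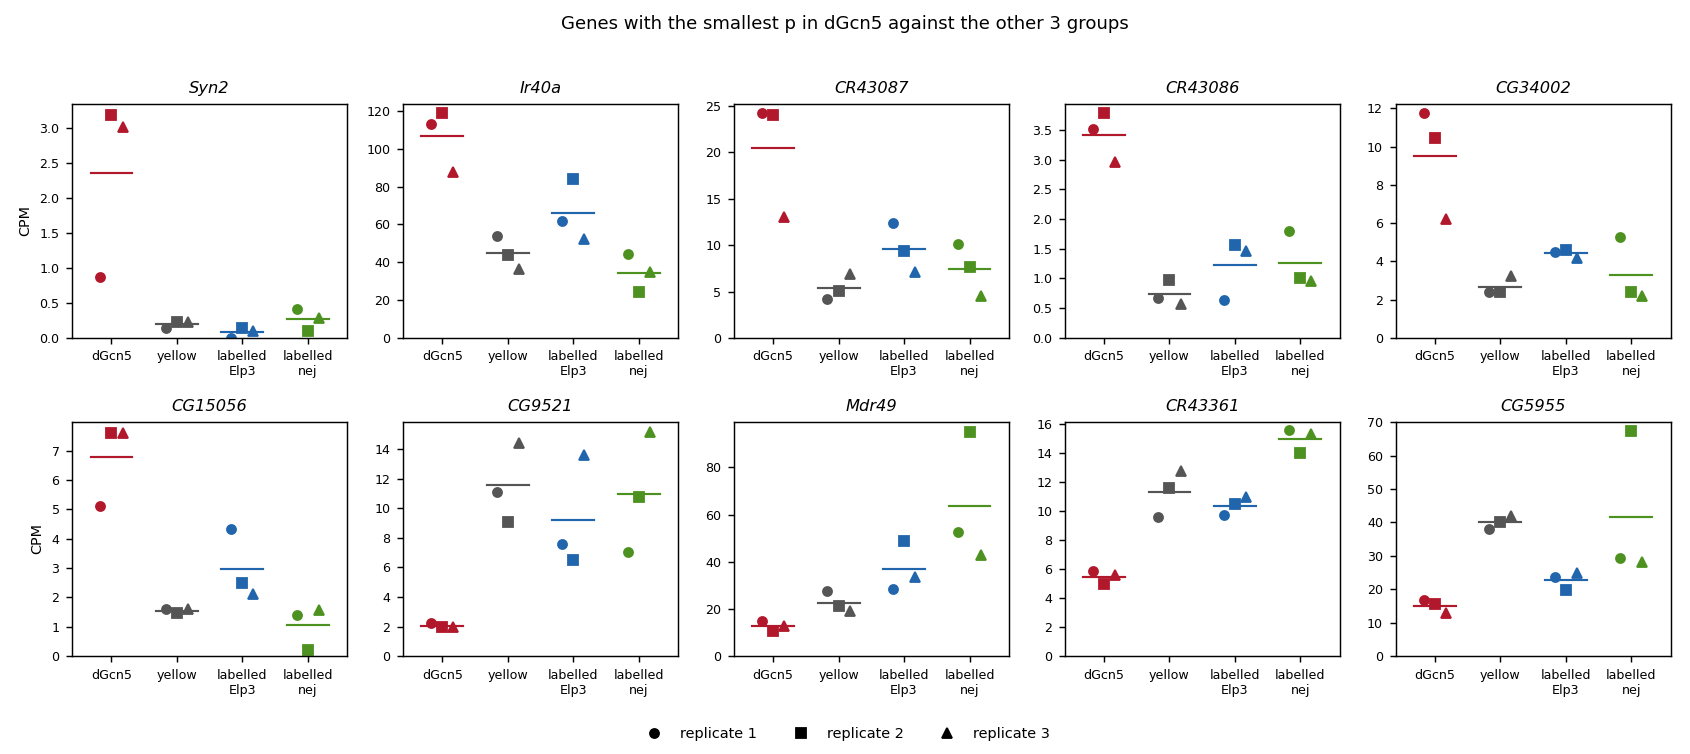
CPM in each of the 12 libraries (vertical axes, linear from 0) of the 6 higher and 4 of the lower genes with the smallest p for dGcn5 against the mean of the other 3 groups; Gcn5 and Elp3 are in the plot of the targets. Symbols are replicates and lines are group means. In every panel the 3 dGcn5 libraries lie outside the range of the 9 others, with small gaps for CR43087 and Ir40a.

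Other genes met both conditions, an unadjusted p under 0.05 against each group and all dGcn5 libraries outside the range of the rest, and were picked out after their values were seen. fat-spondin, a secreted matrix protein, measured 59.8, 63.5 and 107 CPM in dGcn5-depleted cells, and at most 51.7 CPM in any other library (log2 fold change 1.08, unadjusted p = 0.00152). rad50, a subunit of the MRN complex that binds broken DNA ends, measured 227, 248 and 210 CPM, and at least 280 CPM in the others (-0.74, unadjusted p = 0.00321). Rpn9, a subunit of the proteasome lid, measured 167, 170 and 129 CPM, and at least 195 CPM in the others (-0.77, unadjusted p = 0.00709). Rbcn-3B, a regulator of the vacuolar proton pump, measured 19.97, 18.5 and 24.95 CPM, and at least 26.1 CPM in the others (-1.63, unadjusted p = 0.00424). For Rbcn-3B the others were spread widely, up to 95.03 CPM, and yellow replicate 3 and replicate 1 of the libraries labelled Elp3 lay close to the dGcn5 libraries. None of these passed the adjusted threshold in the edgeR fit used here or in DESeq2, but Rbcn-3B passed it in the edgeR fit with the length trend removed and the replicate number as a block. The transposable element insertions FBti0018913 and FBti0059739 also met both conditions, at mean levels of 0.0651 and 1.08 CPM in dGcn5-depleted cells and 0.379 and 2.22 CPM in the other libraries.

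The study lists 16 genes that differed between dGcn5-depleted and yellow dsRNA cells. That list was chosen on these dGcn5 and yellow libraries, so its difference from yellow is a description, and the libraries labelled Elp3 and nej are those it did not use. All 16 had an unadjusted p under 0.05 against yellow, where 2.93% of all features did. Against the libraries labelled nej 13 of 16 did (4.99% of all features), with CG15347 in the direction opposite to that against yellow, and against those labelled Elp3 8 of 16 did (0.897%). The dGcn5 libraries on which the list was chosen enter all 3 comparisons. Counts above the shares of all features were thus partly fixed by that choice, and the 3 counts are not independent. Without Gcn5, the target, they were 15 (yellow), 12 (labelled nej) and 7 (labelled Elp3) of 15. There were 8 genes with p under 0.05 against each group, in the same direction, where 0.203% of all features did so. They were Gcn5, CG9521, CR43361, Syn2, Ir40a, CG34002, CR43086 and CR43087. In 10 of the 16 genes all dGcn5 libraries lay outside the range of the 9 others, the further genes being CG15056 and CG5955.

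In 4 of the lower genes of that list the libraries labelled Elp3 and nej also lay below yellow, by log2 fold changes of -0.95 to -4.56, though for CG42268 the libraries overlapped. The mean with yellow dsRNA was the highest for Gcn5 and CG9521 too. There the libraries labelled Elp3 and nej differed from yellow by only -0.36 and -0.38 for Gcn5 and by -0.32 and -0.07 for CG9521. CG7497 measured 0.289, 0.0461 and 0.494 CPM in dGcn5-depleted cells and 7.10, 4.53 and 1.94 CPM with yellow dsRNA. It also measured only 0.481, 0.184 and 0.710 CPM in the libraries labelled Elp3 and 0.462, 0.193 and 0.237 CPM in those labelled nej. The log2 fold change of dGcn5 dsRNA was -4.01 against yellow, but -0.72 (interval -2.46 to 1.02) against the libraries labelled Elp3 and -0.11 (interval -1.89 to 1.68) against those labelled nej. CG42268 measured 1.88, 0.692 and 1.38 CPM with dGcn5 dsRNA and 27.9, 17.3 and 1.28 CPM with yellow dsRNA, so that yellow replicate 3 lay within the dGcn5 range and below all libraries labelled Elp3. Its levels were 2.78, 1.93 and 5.25 CPM in the libraries labelled Elp3 and 1.18, 0.145 and 0.950 CPM in those labelled nej. CG33460 measured 0.289, 0.646 and 0.346 CPM with dGcn5 dsRNA, 4.11, 4.75 and 1.85 CPM with yellow dsRNA, and no more than 1.12 CPM in the libraries labelled Elp3 or nej. Against the libraries labelled Elp3 and nej, dGcn5 dsRNA gave -1.33 (interval -3.35 to 0.69) and 0.79 (interval -1.28 to 2.87) for CG42268, and -0.69 (interval -2.57 to 1.18) and 1.51 (interval -0.56 to 3.59) for CG33460 on the log2 scale.

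CG15347 measured 151, 169 and 121 CPM in dGcn5-depleted cells and 352, 316 and 422 CPM with yellow dsRNA. The libraries labelled Elp3 measured 256, 155 and 154 CPM and those labelled nej 57.5, 59.2 and 90.6 CPM. dGcn5-depleted cells were thus below yellow by a log2 fold change of -1.31 (interval -1.91 to -0.70) and above the libraries labelled nej by 1.09 (interval 0.49 to 1.69). Relative to yellow, the libraries labelled Elp3 and nej had log2 fold changes of -0.95 and -2.39 for CG15347, -3.29 and -3.91 for CG7497, -2.22 and -4.34 for CG42268, and -2.35 and -4.56 for CG33460. All these values share the yellow libraries. For none of these 4 genes was dGcn5 dsRNA set apart from the other dsRNAs.

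In the 2 remaining higher genes libraries of other groups reached into the dGcn5 range. Gfat1 is, beside Gfat2, a gene of the rate-limiting enzyme of the hexosamine pathway, which supplies chitin and protein glycosylation. Gfat1 measured 1.88, 2.03 and 2.27 CPM in dGcn5-depleted cells and 0.357, 0.352 and 0.574 CPM with yellow dsRNA. It measured 2.14, 0.643 and 1.61 CPM in the libraries labelled Elp3 and 0.770, 0.339 and 0.570 CPM in those labelled nej, so that replicate 1 labelled Elp3 was the library that overlapped. Its log2 fold change was 2.25 against yellow and 1.87 against the libraries labelled nej, but 0.50 (interval -0.63 to 1.62) against those labelled Elp3. Cpr64Ac, a cuticle protein, measured 11.96, 5.72 and 2.72 CPM in dGcn5-depleted cells and 0.447, 0.440 and 0.574 CPM with yellow dsRNA. It measured 9.84, 3.12 and 0.804 CPM in the libraries labelled Elp3 and 3.34, 0.290 and 0.380 CPM in those labelled nej, and replicates 1 and 2 labelled Elp3 and replicate 1 labelled nej lay above dGcn5 replicate 3. The difference from the libraries labelled Elp3 was 0.57 on the log2 scale (interval -1.55 to 2.69).

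**Figure D5:**
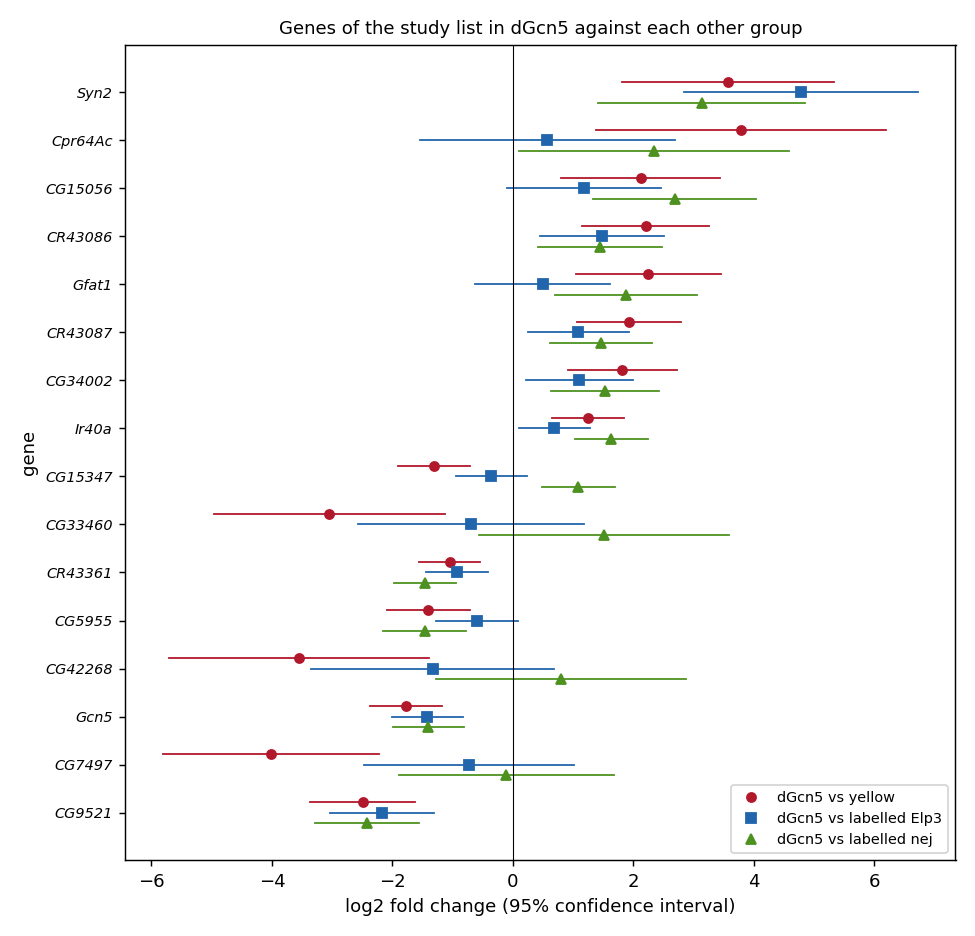
log2 fold change of the 16 genes of the study's list in dGcn5 against yellow (red circles), against the libraries labelled Elp3 (blue squares) and against those labelled nej (green triangles), with 95% confidence intervals from the edgeR fit. For Syn2, CR43086, CR43087, CG34002, Ir40a, CR43361, Gcn5 and CG9521 all 3 intervals lie on 1 side of 0. For CG7497, CG42268 and CG33460 only the comparison with yellow does, and for CG15347 the comparison with nej lies on the opposite side.

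Genes of the complexes that contain Gcn5 were examined next. Of 21 SAGA subunits, all tested, Gcn5, the target itself, was the 1 member with an unadjusted p under 0.05, against 1.83% of all features. The log2 fold changes had a median of 0.11, with 13 members above 0 and 8 below. The member with the next smallest p was not, the deubiquitinase of the complex, at 44.7 ± 7.06 CPM in dGcn5-depleted cells and 37.8 ± 3.66 CPM in the others (SD, n = 3 and n = 9, log2 fold change 0.25, interval -0.07 to 0.56). Of 10 ATAC subunits 9 were tested and 0 had p under 0.05, and their median was 0.03. Atac1 had a log2 fold change of 0.41 (interval -0.28 to 1.09), and Atac2, the second acetyltransferase of ATAC, one of 0.15 (interval -0.20 to 0.50). Of 18 other acetyltransferases and deacetylases 16 were tested, and those with p under 0.05 were Elp3 and nej, which the labelled libraries set.

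The study also lists 12 DNA repair genes and 7 cell cycle genes. None of these had an unadjusted p under 0.05 (edgeR), and the smallest were 0.206 for repair and 0.338 for cell cycle genes. The median log2 fold changes were -0.08 and -0.17, with 10 of 12 and 6 of 7 below 0, where 5300 of 10368 features were. Ku80, which binds DNA ends in end joining, measured 138 ± 13.4 CPM in dGcn5-depleted cells and 159 ± 17.7 CPM in the others (SD, log2 fold change -0.20, interval -0.54 to 0.13). mei-41, the ATR kinase of the damage checkpoint, measured 21.6 ± 3.09 CPM and 33.9 ± 16.5 CPM (-0.64, interval -1.69 to 0.41). CycB, the mitotic cyclin B, measured 163 ± 7.11 CPM in dGcn5-depleted cells and 188 ± 39.2 CPM in the others (-0.20, interval -0.64 to 0.24). E2f1, the activator of S-phase genes, had a log2 fold change of -0.34 (interval -1.15 to 0.47). Once the trend with exon length was removed from each library, the value was 0.05 for E2f1 and -0.17 for mei-41. The exons of E2f1 overlap an antisense RNA by 283 bases. The intervals of Ku80 and CycB exclude a change of more than 1 log2 unit in either direction, and that of mei-41 does not. rad50, picked out above with a log2 fold change of -0.74, is not on the study's list of repair genes.

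In the further lists few genes reached an unadjusted p under 0.05. Since 1.83% of all features did, lists of this size hold less than 1 such gene at that share, and counts of 0 say nothing about their members. Of 14 heterochromatin proteins 0 had p under 0.05, with a median log2 fold change of -0.15. Kdm4B, a histone H3 lysine 9 demethylase, had the smallest p (log2 fold change -1.19, interval -2.54 to 0.16), and its exons share 5718 bases with CG17724 on the same strand. Of 11 Smc5/6 and SUMO genes, which act in relocalization of heterochromatic breaks, 0 had p under 0.05 (median -0.10). velo, a SUMO protease, measured 83.3 ± 17.3 CPM in dGcn5-depleted cells and 110 ± 27.4 CPM in the others, and qjt measured 0.494 ± 0.0597 CPM and 0.368 ± 0.232 CPM. Of 8 genes tested in the RNA interference list 0 had p under 0.05 (median -0.26). The smallest p was that of vir-1, a virus-induced gene also put in this list. It measured 148 ± 18.8 CPM against 293 ± 157 CPM (-0.84, unadjusted p = 0.0540). The libraries labelled nej alone stood at 141 ± 83.2 CPM. Against these the log2 fold change was 0.07 (interval -0.93 to 1.07), so vir-1 was not set apart from them. AGO1, the miRNA Argonaute, measured 112 ± 26.1 CPM against 170 ± 87.6 CPM.

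Of 14 ecdysone response genes tested 0 had p under 0.05, with 12 below 0 and a median of -0.44, where 51.1% of all features were below 0. EcR, the ecdysone receptor, measured 7.79 ± 2.95 CPM in dGcn5-depleted cells and 14.6 ± 8.55 CPM in the others, and Eip74EF, an early ecdysone target, 16.7 ± 2.11 CPM and 22.5 ± 6.51 CPM. With the length trend removed, the log2 fold change of EcR was -0.37 in place of -0.89, and that of Eip74EF was close to 0 in place of -0.42. It was also smaller for Kdm4B (-0.71), velo (-0.11) and AGO1 (-0.10). Of 12 heat shock genes tested 0 had p under 0.05 (median -0.32), with DnaJ-1 at 133 ± 17.4 CPM in dGcn5-depleted cells and 178 ± 34.4 CPM in the others (-0.41, unadjusted p = 0.0501). Hsp23 measured 1380 ± 713 CPM and 930 ± 825 CPM. Of 7 hexosamine and chitin genes tested Gfat1 was the 1 member with p under 0.05, and mmy, the last enzyme of the pathway, had a log2 fold change of 0.21 (interval -0.10 to 0.52). Gfat2, at a far higher level than Gfat1, measured 136 ± 18.8 CPM in dGcn5-depleted cells and 119 ± 24.8 CPM in the others (0.21, interval -0.19 to 0.61). Of the 4 cuticle genes of 64A both that were tested, Cpr64Ac and Cpr64Ad, had p under 0.05, where 1.83% of all features did. Cpr64Ad stood at 0.362 ± 0.251 CPM in dGcn5-depleted cells and 0.189 ± 0.234 CPM in the others, but at 0.440 ± 0.264 CPM in the libraries labelled Elp3 (log2 fold change -0.27 against these, interval -2.18 to 1.63). Neither cuticle gene was thus set apart from the libraries labelled Elp3.

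Cell identity was checked by markers. All 12 hemocyte markers were tested and 0 had p under 0.05, and their summed level was 1960 to 7201 CPM in dGcn5-depleted cells and 1851 to 7565 CPM in the others. Their log2 fold changes had a median of -0.25, with 3 members above 0 and 9 below, where 51.1% of all features were below 0. He and NimC1, surface proteins of hemocytes, had the smallest p. They measured 38.5 ± 22.1 and 6.51 ± 3.84 CPM in dGcn5-depleted cells and 73.4 ± 41.4 and 12.3 ± 7.17 CPM in the others. SPARC and eater lay on the other side, with log2 fold changes of 0.36 and 0.21. Of 5 crystal cell and lamellocyte markers 3 were tested, and lz and atilla measured 0.196 ± 0.227 and 1.09 ± 1.27 CPM in dGcn5-depleted cells and 0.771 ± 0.8997 and 2.94 ± 3.44 CPM in the others. PPO3, the marker of this list with the highest level, measured 39.1 ± 8.16 CPM and 40.4 ± 12.2 CPM. Neuron markers (3 of 5 tested) summed to 25.8 to 39.4 CPM in dGcn5-depleted cells and 23.2 to 52.0 CPM in the others, and muscle markers (5 of 7 tested) to 9.27 to 10.5 CPM and 7.84 to 25.7 CPM. Lsp1beta was the 1 of 6 fat body markers tested, at 4.24 ± 0.457 CPM in dGcn5-depleted cells and 5.03 ± 3.47 CPM in the others. Germline markers (4 of 5 tested) summed to 221 to 263 CPM in dGcn5-depleted cells and 184 to 301 CPM in the others. Most of this sum was aub, at 198 ± 15.8 CPM and 197 ± 26.9 CPM, while vas stood at 0.753 ± 0.164 CPM and 0.768 ± 0.312 CPM. None of these other markers had p under 0.05, the smallest being 0.0699, for Mhc, a muscle myosin at 0.472 ± 0.374 CPM and 1.40 ± 0.921 CPM. The ranges of all marker sums overlapped between dGcn5-depleted and other cells. In such bulk samples fewer cells of a type and less RNA per cell cannot be told apart.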

How the data were processed

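RNA was sequenced from 12 samples of Kc 167 cells, 3 for each dsRNA, grouped by their labels. Reads were trimmed and freed of ribosomal RNA by the authors, who aligned them with STAR (BDGP6.32) and assigned them to Ensembl exons with featureCounts. The deposited values are raw counts per feature. The libraries were made with a stranded mRNA kit and with adapters that carry molecular identifiers. The strand setting in counting, the use of these identifiers and the treatment of reads with several matches are not given in the sources used here. The authors compared groups with DESeq2. Libraries held 19102102 to 23198850 counts, and precision was taken from the spread between replicates.

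The main test was edgeR 4.0.16 (R 4.3.3), the quasi-likelihood test with TMM, the filter on low counts (minimum 10), 4 group means over all 12 libraries and no covariate. The contrast was dGcn5 minus the mean of the 3 other group means, with Benjamini-Hochberg adjustment over all 10368 features and a threshold of 0.05. A second test took the largest of the 3 p-values against the single groups where all log2 fold changes had the same sign. The 95% intervals came from the F statistic. Gcn5 was also given an exact permutation test of 3 against 9 libraries. This edgeR fit, with both tests, was tried on simulated data first, and the alternatives below were not. The simulated spread was smaller than that between these libraries. Biotypes came from Ensembl 115 by identifier (10328 matched) and coordinates from the deposited table.

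Alternatives were DESeq2 1.42.0, DESeq2's size factors, limma-voom 3.58.1 with quality weights, edgeR's newer method, other filters, the 9 libraries pooled, the replicate number as a block, a length trend removed, and groups or libraries left out. Named genes are the targets, the study's list of 16, the 6 genes with the smallest p in each direction where fewer were called, and 2 members of each list with the smallest p. Members, lists and tests were chosen with earlier results of these data known.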

Additional observations from a re-analysis of the deposited data

How the results depend on the processing

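The count of 0 genes called against the other 3 groups became 12 with DESeq2, 3337 with limma-voom and quality weights, 2 with edgeR's newer method, 2 without a filter, 1 with DESeq2's size factors, 1 with the length trend removed, 1 without the libraries labelled nej and 1 without the yellow libraries. With the length trend removed and the replicate number as a block it was 5 (Gcn5, CG9521, Rbcn-3B, daw and Elp3, all lower), and with the block alone 0. With each library left out it was 0 to 1. Wherever 1 gene was called it was Elp3, and wherever 2 were called they were Elp3 and Syn2. The change of Elp3 came from the libraries labelled Elp3, so Elp3 is not a gene set apart by dGcn5 dsRNA. limma-voom gave quality weights between 0.216 (yellow replicate 3) and 7.75 (dGcn5 replicate 1). The cause of these differences was not tested. The count against each group was 3 with DESeq2 and 0 under all other settings, and the pooled setting gives no such count.

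The log2 fold change of Gcn5 passed the threshold with DESeq2 (-1.53), limma-voom (-1.88) and the length trend with block (-1.52), and ranged from -1.69 to -1.33 (adjusted p 0.0974 to 1 in edgeR) with each library left out. The number of features outside the range of the 9 others was 77 with the length trend removed. It was 42 to 373 with each library left out, where fewer libraries make the condition easier to meet. That alternative was chosen after seeing the data, as was the minimum of 10 counts in every library, which gave 31.

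The sign of some values turned. CG15347 became 0.026 without the third replicates and 0.366 without the yellow libraries, and CG33460 became 0.411 without the yellow libraries. E2f1 became 0.051 with the length trend removed and 0.05 with the block added, elav 0.044 with it removed and -1.363 to 0.053 with each library left out, atilla 0.338 and y 0.868 with limma-voom, and y 0.659 without the third replicates and -0.86 to 0.214 with each library left out. Lsp1beta became -0.245 with the 9 libraries pooled, -0.658 without the yellow libraries and -0.001 to 0.339 with each library left out. None of these had passed the test. Of the other values of named genes 1211 kept their direction and side of the threshold and 52 passed it only under the alternative.

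The labels do not say what a replicate number marks, and not every same-numbered pair deviated together, so the numbers were not taken as pairs. A part of the spread did follow them: 13 of 18 same-numbered pairs correlated above 0.1 (r -0.639 to 0.845), against 12 of 36 others, 8 of 12 libraries correlated best with their own number, and the second principal component put each replicate 2 above 0 and each replicate 3 below it. The replicate block gave 370 features at an unadjusted p under 0.05, in place of 190. With a median interval of 0.71 log2 units to either side, differences smaller than this were often not detectable.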

Other observations

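Some further genes lay outside the range of the 9 other libraries without differing from each group, and they were picked out after their values were seen. arg, which encodes arginase, measured 47.8, 37.8 and 37.2 CPM in dGcn5-depleted cells and 3.24 to 32.9 CPM in the others (log2 fold change 1.18, unadjusted p = 0.0154). Its exons share 673 bases with those of elav on the opposite strand. asRNA:CR43425, an antisense RNA of chromosome 4, measured 3.52, 3.64 and 2.47 CPM in dGcn5-depleted cells and 0.706 to 2.25 CPM in the others (1.35, unadjusted p = 0.00380). blow, which acts in myoblast fusion, measured 60.8, 58.6 and 65.7 CPM in dGcn5-depleted cells, below all others (-0.43, unadjusted p = 0.0145).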
